A study of Mus musculus with 2 samples.

Results

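EP300 binding in the newborn mouse heart was examined at 10 genes of the basement membrane: Col4a1, Col4a2 and Col15a1 (collagens), Hspg2 (perlecan), Lama2, Lama4, Lama5, Lamb1 and Lamc1 (laminin chains) and Nid1 (nidogen-1). A peak belonged to a gene when the gene's transcript start was the nearest protein-coding start to the peak's summit and lay within 100 kb of it. By this rule 64 of the 17339 peaks on the main chromosomes belonged to the 10 genes, and 9 of the 10 had at least 1 peak, against 31.9% of all 21829 protein-coding genes. The 10 genes were chosen with earlier results of these data known. Neither number was adjusted for the stretch of genome that lies nearest to each gene. No peak was dropped for a low value. The peak list was made by chromatin immunoprecipitation and sequencing (ChIP-seq) with an antibody labelled EP300, on heart tissue taken at postnatal day 0 from mice of the strain labelled B6NCrl. There were 2 libraries of 1 group, named biological replicates 1 and 2. They share a biosample label and a donor label, so the spread between them may be technical. All counts rest on the optimal list, which the authors selected by the irreproducible discovery rate (IDR), a measure of how repeatably peaks rank, and the unselected lists of replicate 1, replicate 2 and the pooled reads were searched for the same loci. The study held no second condition, and everything below is a description without a test.

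Basement membranes are thin protein sheets under endothelium and around muscle cells. Laminin trimers and a network of type IV collagen form their layers, nidogen and perlecan tie these layers together, and in the heart such a sheet wraps each muscle cell and supports each capillary. EP300, also called p300, is a histone acetyltransferase that transcription factors bring to enhancers and promoters. An EP300 peak therefore marks DNA where such factors may act, without showing which gene the site serves. The heart is a mixture of cell types, and the peak lists do not tell from which of them a peak came.

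The letters under the strongest peaks come first, because they are the DNA that the values below describe. Each run is 200 bases centred on a summit, read on the plus strand of the mm10 assembly, and capitals mark matches to the consensus motifs given further on. The first 5 are the strongest distal peak of each of the 5 genes with the highest distal signal, and a number after a gene name is the distance of the summit in bp from the start of its principal transcript, positive in the direction of transcription. Hspg2 +20130 carried the highest signal of the 64.
Hspg2 +20130, chr4:137488833-137489032: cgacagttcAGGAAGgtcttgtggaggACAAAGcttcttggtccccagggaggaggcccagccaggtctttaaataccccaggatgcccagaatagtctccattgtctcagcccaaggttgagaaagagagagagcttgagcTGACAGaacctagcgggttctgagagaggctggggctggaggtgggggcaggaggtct
Col4a1 +129118, chr8:11183608-11183807: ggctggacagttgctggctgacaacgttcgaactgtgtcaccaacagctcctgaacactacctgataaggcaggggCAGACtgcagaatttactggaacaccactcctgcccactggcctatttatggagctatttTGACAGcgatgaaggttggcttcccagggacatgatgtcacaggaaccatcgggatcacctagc
Col4a2 -15033, chr8:11297672-11297871: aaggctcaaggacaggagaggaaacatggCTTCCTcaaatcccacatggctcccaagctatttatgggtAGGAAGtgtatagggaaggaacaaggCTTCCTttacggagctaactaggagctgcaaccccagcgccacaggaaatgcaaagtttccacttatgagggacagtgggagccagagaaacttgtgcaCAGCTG
Lamb1 +28749, chr12:31293883-31294082: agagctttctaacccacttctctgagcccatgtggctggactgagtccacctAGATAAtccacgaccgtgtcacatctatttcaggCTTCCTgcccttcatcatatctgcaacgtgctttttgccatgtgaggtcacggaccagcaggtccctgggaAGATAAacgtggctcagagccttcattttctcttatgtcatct
Col15a1 -58033, chr4:47150028-47150227: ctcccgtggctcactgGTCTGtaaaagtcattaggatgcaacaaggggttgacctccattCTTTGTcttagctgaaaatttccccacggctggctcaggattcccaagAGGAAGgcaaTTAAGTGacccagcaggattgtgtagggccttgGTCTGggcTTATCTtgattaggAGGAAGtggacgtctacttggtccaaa
The next run is the strongest promoter peak of the 10 genes.
Lamc1 -864, chr1:153333550-153333749: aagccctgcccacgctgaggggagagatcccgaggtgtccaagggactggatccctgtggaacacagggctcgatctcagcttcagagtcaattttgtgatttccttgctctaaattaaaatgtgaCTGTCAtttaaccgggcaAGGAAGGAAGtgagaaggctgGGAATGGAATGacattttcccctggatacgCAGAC
The last 2 were chosen after their values were seen, as the strongest peaks with an AP-1 match at the type IV collagen locus and at Hspg2.
Col4a1 -80156, chr8:11392882-11393081: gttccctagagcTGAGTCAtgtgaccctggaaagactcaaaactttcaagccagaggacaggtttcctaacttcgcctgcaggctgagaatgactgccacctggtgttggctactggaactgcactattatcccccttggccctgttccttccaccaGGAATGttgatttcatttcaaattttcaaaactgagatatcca
Hspg2 +29730, chr4:137498433-137498632: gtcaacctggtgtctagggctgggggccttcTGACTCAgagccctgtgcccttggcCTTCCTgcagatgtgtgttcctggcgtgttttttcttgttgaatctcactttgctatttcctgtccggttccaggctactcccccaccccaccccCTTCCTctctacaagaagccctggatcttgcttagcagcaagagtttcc

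The peaks of the basement membrane genes stood close to the list's median height, and most lay away from promoters. Their median signal was 30.0, with the middle 50% between 19.5 and 40.3, beside a median of 30.6 (22.7 to 43.6) over all peaks of the list. The signal value is the authors' own per-peak number, whose formula the sources used here do not give. It ranged from 7.64 to 88.9 at the 10 genes, while the whole list reached 310.9. Exactly 32 of the 64 peaks stood above the median of all peaks, and 1 of them was among the 1000 strongest. A deposited −log10 q of at least 2 was held by 34 of the 64, or 53.1% (95% Clopper-Pearson interval 40.2% to 65.7%), against 57.7% of all peaks. Intervals of this kind cover counting error only.

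A summit within 1 kb of a protein-coding start, here called promoter-proximal, was found for 6 of the 64 peaks, or 9.38% (95% Clopper-Pearson interval 3.52% to 19.3%), against 33.5% of all peaks. The median distance to the nearest start was 22645.5 bp at the 10 genes and 8080 bp over the whole list. Introns of the 10 genes held 47 of the summits, 11 lay upstream and 6 lay beyond the 3′ end of Col4a1. In all, 25 summits lay in intron 1 of the gene to which they were assigned, 14 of them in Hspg2, 6 in Col4a1, 3 in Lamc1 and 2 in Lama4. A promoter-proximal peak was held by 4 of the 10 genes, Col4a1, Lama4, Lama5 and Lamc1, against 19.0% of all protein-coding genes. That of Col4a1 lay at the start of a shorter transcript inside the gene.

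The peaks were spread very unevenly over the 10 genes. Col4a1 had 26 and Hspg2 18, which placed them as the fourth and the eleventh of all genes by number of peaks. The count of Col4a1 depends on how peaks are assigned, as described below, and was 9 with basic transcripts and 12 by gene body. Lamc1 had 7, Lama4 5, Lama5, Lamb1 and Col15a1 2 each, Col4a2 and Nid1 1 each, and Lama2 0. The median gene with a peak had 2, and 75% of such genes had at most 3. A count by nearest start can grow with the stretch of genome nearest to a gene, and no adjustment was made for it. In the unselected pooled list Col4a1 had 103 calls by the same rule, Hspg2 40 and Nid1 4, against a median of 5 over all genes. Neighbouring calls are common in this list, and joining summits less than 1 full peak width apart left 52 separate sites, of which 22 belonged to Col4a1, 14 to Hspg2, 5 each to Lama4 and Lamc1, 2 to Col15a1 and 1 each to Lama5, Lamb1, Col4a2 and Nid1.

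**Figure D1:**
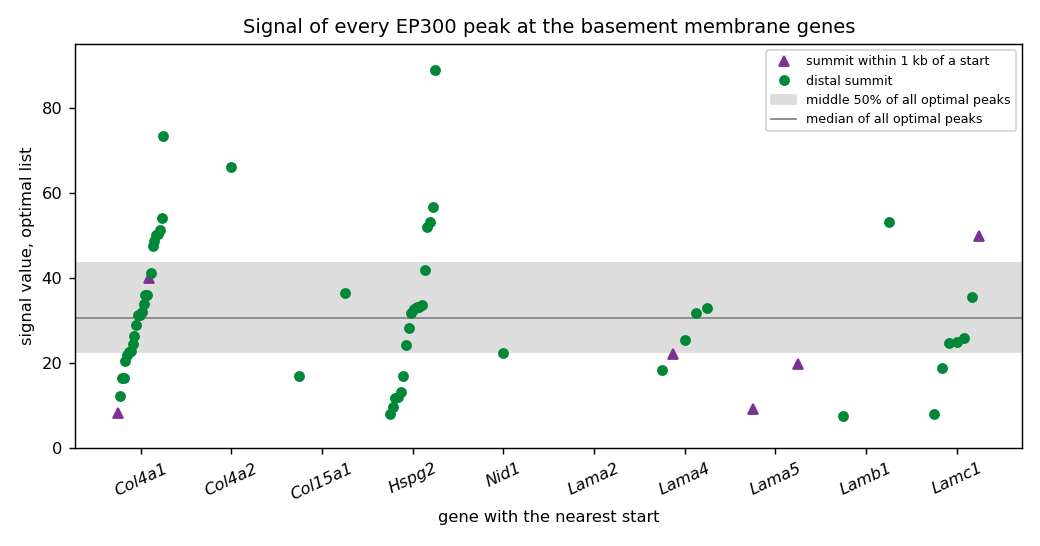
Signal value in the optimal list (y axis, the authors' unit) of each of the 64 peaks, by the gene with the nearest start (x axis); triangles are promoter-proximal summits, circles distal ones, and the grey band holds the middle 50% of all 17339 peaks. Col4a1 and Hspg2 hold 44 of the 64 points between them, and the highest point is Hspg2 at 88.9.

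Col4a1 and Col4a2 encode the alpha-1 and alpha-2 chains that wind together into the most widespread type IV collagen. The genes lie head to head on chromosome 8 (Col4a1 at 11198423 to 11312826 on the minus strand, Col4a2 at 11312805 to 11449287 on the plus strand, mm10), and their starts overlap by 21 bp. EP300 covered this locus with 27 assigned peaks in 23 sites, whose summits spanned 223178 bp and whose signals summed to 944.1. The strongest, Col4a1 +129118, had a signal of 73.4 (rank 1133 of the optimal list) and lay beyond the 3′ end of Col4a1, with 42.8 (rank 1159) in the replicate 1 list and 30.4 (rank 1422) in the replicate 2 list. Next came Col4a2 -15033, inside intron 1 of Col4a1, with 66.1 (rank 1520), and with 34.4 (rank 2132) and 27.0 (rank 1969) in the replicate lists. Both summits were thus high in each replicate.

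The peaks stood in 3 stretches of the locus. Beyond the 3′ end of Col4a1 stood 6 peaks in 3 sites, with signals of 16.4 to 73.4 and a median of 44.8. The body of Col4a1 held 12, from 8.17 to 66.1 with a median of 30.1. The body of Col4a2 held 9 assigned to the locus, from 12.3 to 51.3 with a median of 36.0, and a further 4 of 15.5 to 32.9 that lay nearest to the start of Rab20, a neighbouring gene. All 9 of those in Col4a2 lay in introns 3 and 4. They included a group deep inside the gene, where Col4a1 -80156 reached 50.3 and Col4a1 -82151, the farthest of the 64 from its assigned start, reached 51.3. In Col4a1 the strongest after the intron 1 peak was Col4a1 +78515 in intron 21, at 54.2, with 29.5 (rank 3229) in replicate 1 and 21.7 (rank 3557) in replicate 2.

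The start that the 2 collagen genes share held no peak of the optimal list. The nearest summits lay 10141 bp inside Col4a2 and 15054 bp inside Col4a1. The pooled list had a call there with a signal of 20.6 at rank 18649, just outside the 17372 leading ones, and replicate 1 had one of 17.8 at rank 10084, while replicate 2 had no call within 1 kb. The 200 bp around the shared start had a GC content of 73.5% with 26 CpG, and held 2 matches to the KLF and SP motif. A promoter-proximal peak did stand inside the gene, at the start of a shorter transcript that begins 33170 bp downstream of the principal start. Its summit, Col4a1 +33354, had a signal of 40.0, with 27.4 (rank 3895) in the replicate 1 list and 11.8 (rank 13994) in that of replicate 2, and a neighbouring call reached 8.17.

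Which collagen gene a peak was counted for depended on the annotation rather than on the peak. Because the starts overlap, the nearest start to a summit inside one gene is that of its partner unless a shorter transcript intervenes. All 9 peaks inside Col4a2 were therefore counted for Col4a1, and the 1 peak counted for Col4a2 lay inside Col4a1. A further 10 were nearest to the shorter Col4a1 transcript named above, and 7 to another fragment of Col4a1 whose start the annotation marks as not found. With basic transcripts alone, which leave both of these out, the 12 peaks in the body of Col4a1 went to Col4a2 and the 9 in the body of Col4a2 went to Col4a1, while the 6 beyond the 3′ end went to neither. Counted by gene body, Col4a1 held 12 peaks and Col4a2 13.

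**Figure D2:**
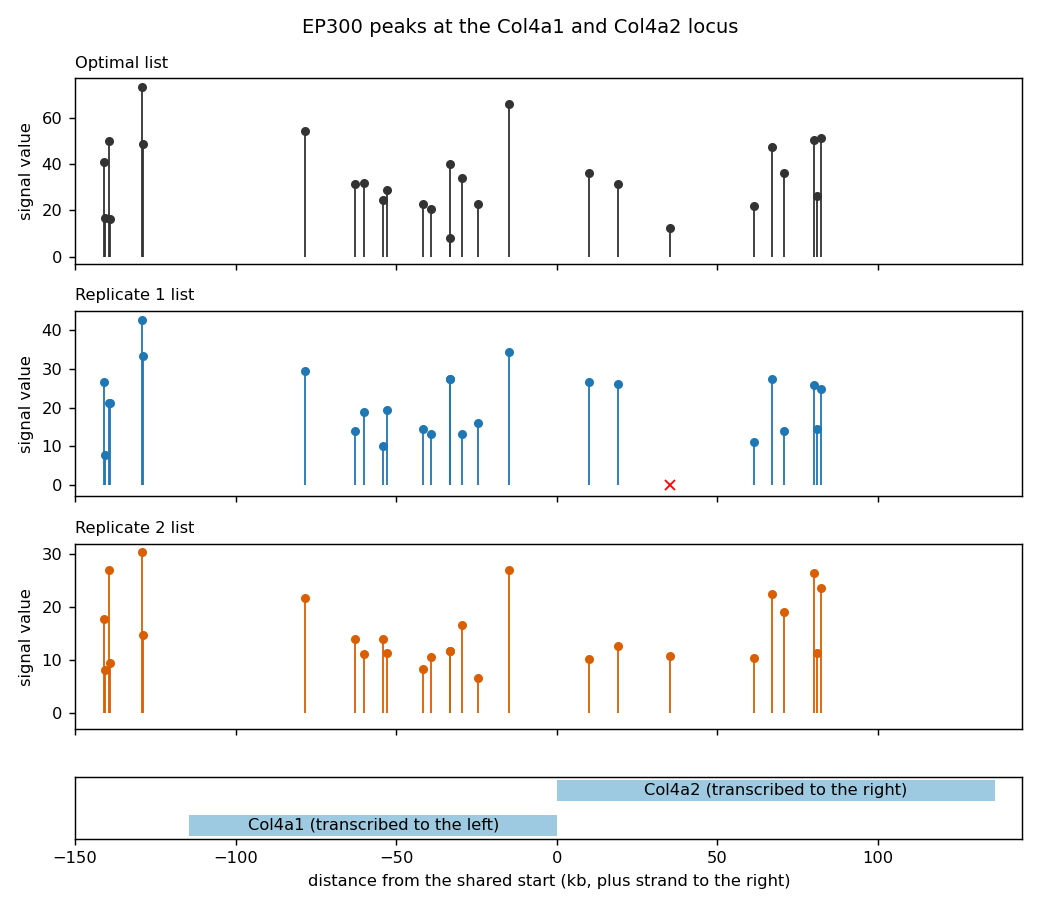
Signal values (y axis, the authors' unit, on a separate scale in each panel) of the 27 peaks of the Col4a1 and Col4a2 locus against distance from the shared start (x axis, kb) in the optimal, replicate 1 and replicate 2 lists; replicate values are the call at the same place, a red cross marks no such call, and blue bars show the genes. The start at 0 is empty, and the tallest stem, 73.4, stands to its left beyond the end of Col4a1.

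Hspg2 encodes perlecan, a large heparan sulphate proteoglycan that binds growth factors within the basement membrane. The gene lies on the plus strand of chromosome 4 (137468769 to 137570630) and has 97 exons, yet the peaks crowded into its front. All 18 stood between Hspg2 -3254 and Hspg2 +38175, and 14 of them fell in intron 1, which is 32134 bp long. Of the other 4, 2 lay upstream and 2 in intron 3. The rest of the gene, beyond these summits, held no assigned peak.

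The highest summit, Hspg2 +20130, had a signal of 88.9 (rank 584), with 47.4 (rank 828) and 38.6 (rank 673) in the lists of replicates 1 and 2, and was the single peak of the 64 within the first 1000 of the list. A second call at the same site, Hspg2 +20350, reached 56.7. Hspg2 +29730 reached 53.2, with 37.9 (rank 1634) and 20.5 (rank 4093) in the replicate 1 and replicate 2 lists. Hspg2 +9679 reached 51.9, with 27.6 (rank 3818) and 26.4 (rank 2124) in the replicate 1 and replicate 2 lists. The strongest perlecan peaks were thus high in both libraries.

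Other perlecan peaks stood at unequal ranks in the libraries. Hspg2 +28742, of signal 41.8, had a call at rank 106394 of the replicate 2 list within 100 bp. The nearest replicate 1 call, at rank 2343, lay farther off, and was within 100 bp of the neighbouring Hspg2 +28942 instead. These 2 ranks thus belong to summits at different positions of 1 site. The reverse held for Hspg2 +2251, of signal 28.1, which stood at rank 85607 of the replicate 1 list and at rank 4230 of the other. At 2 of the 18 peaks the full replicate 1 list had no call, and at 4 that of replicate 2 had none, where a call counts if its summit is no farther away than the edge of a full-width peak is from its centre. The start of Hspg2 held no optimal peak within 1 kb, while the pooled list had a call of 24.2 (rank 14233) 401 bp away, and replicates 1 and 2 had calls of 15.4 and 14.1.

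**Figure D3:**
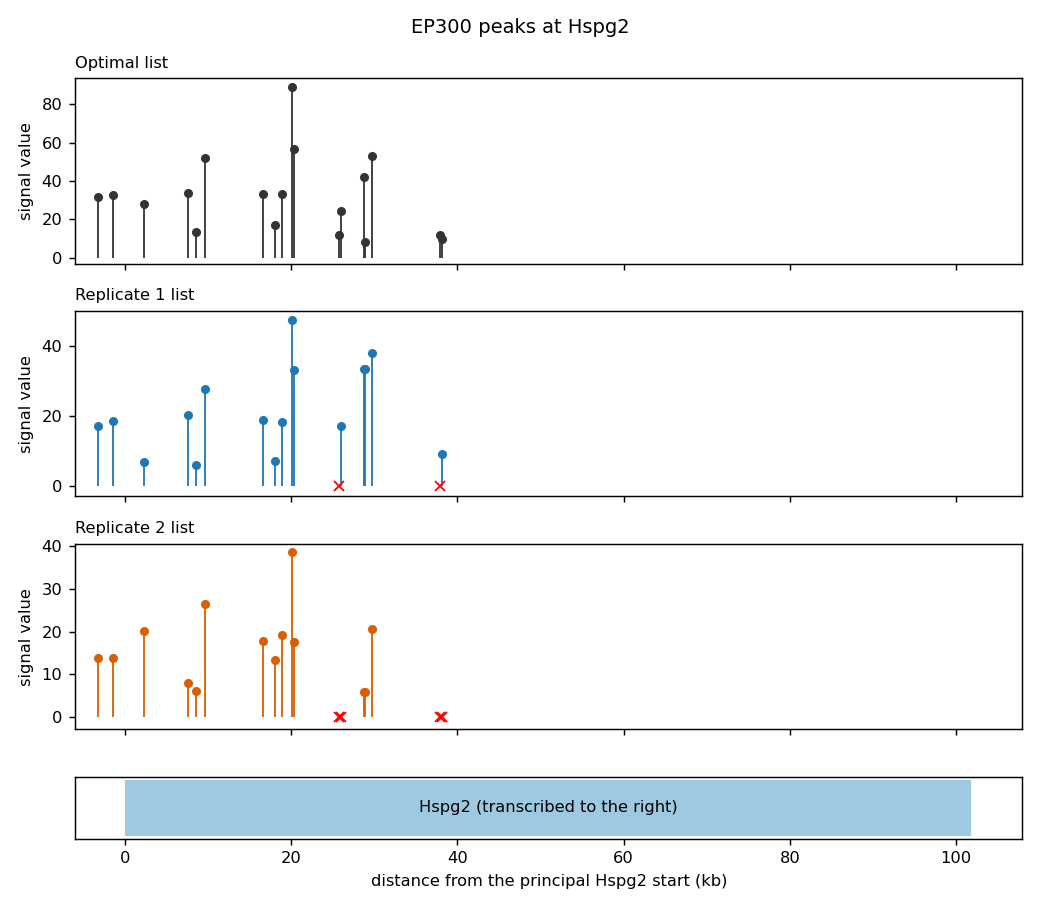
Signal values (y axis, the authors' unit, on a separate scale in each panel) of the 18 Hspg2 peaks against distance from the principal start (x axis, kb) in the optimal, replicate 1 and replicate 2 lists; replicate values are the call at the same place, a red cross marks no such call, and the blue bar is the gene. Every stem stands in the front of the gene or just before it, and the tallest, 88.9, lies 20130 bp inside.

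The 5 laminin chain genes shared 16 peaks in 12 sites, with a median signal of 24.9, and 5 of the 16 stood above the median of all peaks. A laminin is a cross-shaped trimer of an alpha, a beta and a gamma chain. Lamc1 encodes the gamma-1 chain, which most laminins contain, and led the group with 7 peaks (gene at chromosome 1, 153218922 to 153332786, minus strand). Its strongest lay 864 bp upstream of the start, with a signal of 49.8 (rank 3157), and with 20.6 (rank 7493) in replicate 1 and 25.5 (rank 2334) in replicate 2. It was the highest of the 6 promoter-proximal peaks. Lamc1 +108299, in intron 26 near the 3′ end, reached 35.5 and was assigned through a fragment of Lamc1 whose start is also marked as not found. The remaining 5 ranged from 8.13 to 25.8.

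Lamb1, which encodes the beta-1 chain, had 1 strong site (gene at chromosome 12, 31265234 to 31329644, plus strand). Its summit Lamb1 +28749 lay in intron 13 with a signal of 53.1 (rank 2699), and with 30.3 (rank 3007) in replicate 1 and 21.7 (rank 3586) in replicate 2. A second call of 7.64 belonged to the same site. A separate peak of 25.8 inside Lamb1 lay nearest to the start of Dld, a gene of mitochondrial metabolism, and was not counted. The start of Lamb1 itself held a pooled call of 14.4 at rank 35468 and no optimal peak.

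The 3 alpha chains differed from each other. Lama4, the alpha-4 chain of blood vessel laminins, had 5 peaks between 18.3 and 32.8 (gene at chromosome 10, 38965515 to 39110188, plus strand). Lama4 +20727 in intron 1 was the highest, with 14.3 (rank 15216) and 14.6 (rank 8934) in the lists of replicates 1 and 2, and a promoter peak of 22.0 lay 106 bp before the start, with 16.5 and 14.3 in the same lists. Lama5, the alpha-5 chain found in many mature basement membranes, had 1 promoter site of 2 calls, 19.7 at 55 bp and 9.26 at 254 bp before the start (gene at chromosome 2, 180176373 to 180225859, minus strand). Replicate 1 had a call of 17.3 (rank 10664) at this promoter. Replicate 2 had one of 4.44 at rank 233647, far down its list.

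Lama2, the alpha-2 chain of muscle laminin, whose loss causes muscular dystrophy in mice and people, had no peak in the optimal list. By the same rule it also had none in the conservative list, nor among the first 17372 peaks of the pooled, replicate 1 or replicate 2 list. Its 639723 bp (chromosome 10, 26980036 to 27619758, minus strand) make it the longest of the 10 genes. The full pooled list, which runs to 300000 calls, had 100 calls in the gene. The best of them had a signal of 26.3 (rank 12231) in intron 4 (27387480 to 27387975), with ranks of 12513 in replicate 1 and 14874 in replicate 2. It lay 229115 bp from the principal start, beyond the 100 kb limit, and was not itself in the optimal list although its pooled rank fell within the first 17372. Within the limit the best pooled call reached 14.4 at rank 35805, and none of the 73 such calls had a −log10 q of at least 2.

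Nid1 encodes nidogen-1, which links laminin to type IV collagen (gene at chromosome 13, 13437551 to 13512269, plus strand). Its single peak, Nid1 +66611 in intron 15, had a signal of 22.4, with 11.0 (rank 24761) in replicate 1 and 9.27 (rank 24010) in replicate 2. The peak therefore lay outside the first 17372 of each library alone. Col15a1 encodes the type XV collagen of the outer face of muscle and capillary basement membranes (gene at chromosome 4, 47208161 to 47313167, plus strand). Its peaks lay upstream, 36.3 at a distance of 58033 bp, with 15.1 and 17.5 in replicates 1 and 2, and 16.9 at 29385 bp, with 19.2 in replicate 1 and no call in replicate 2. Neither gene had an optimal peak at its start, and the pooled list had no call within 1 kb of the start of Nid1.

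The same loci were then compared between the replicate lists. A summit of both replicates within 100 bp, among the 17372 leading peaks of each, was found for 25 of the 64 peaks, or 39.1% (95% Clopper-Pearson interval 27.1% to 52.1%), against 40.9% of all peaks. By gene the count was 12 of 26 for Col4a1, 6 of 18 for Hspg2 and 3 of 5 for Lama4. It was 1 of 7 for Lamc1, 1 of 2 for Lamb1 and for Col15a1, and 1 of 1 for Col4a2. For Lama5 it was 0 of 2 and for Nid1 0 of 1. With the 25 included, the leading peaks of replicate 1 held 40 of the 64 (62.5%, against 65.3% of all peaks). Those of replicate 2 held 35 (54.7%, against 55.8%). The optimal list was made from these same reads, so the counts are no independent support for it.

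In the full lists of 300000 calls, 56 of the 64 peaks (87.5%, against 86.9% of all peaks) had a call of both replicates at the same place, by the distance used for Hspg2. Of the 8 others, whose highest signal was 24.3, 3 peaks lacked a call in replicate 1 and 7 lacked one in replicate 2. Among the 56, the ranks in the replicates differed by more than 5-fold for 11 (19.6%, against 23.4% of all peaks with both calls). Of the 11, 6 were laminin peaks, 4 were Hspg2 peaks and 1 was a peak of the type IV collagen locus. They are not all separate loci, because neighbouring peaks could be matched to the same replicate call. Hspg2 +28742 and Hspg2 +28942 shared both calls, and Lamb1 +28971, Lama5 -254 and Lamc1 -21811 each shared the replicate 1 call of a neighbour. The better rank was in replicate 1 for 28 of the 56 (50%, against 52% of all such peaks). Over these 56 peaks the replicate signals gave a rho of 0.31 (Spearman) and an r of 0.46 (Pearson), beside 0.43 and 0.68 over all peaks with both calls. These correlations are across peaks of the same 2 libraries, and peaks are not independent. Within the collagen locus rho was 0.51 over 26 peaks, at Hspg2 it was 0.21 over 14 and at the laminin chains it was -0.06 over 14. Each of these groups included neighbouring peaks that shared a replicate call, and the difference between the groups was not tested.

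**Figure D4:**
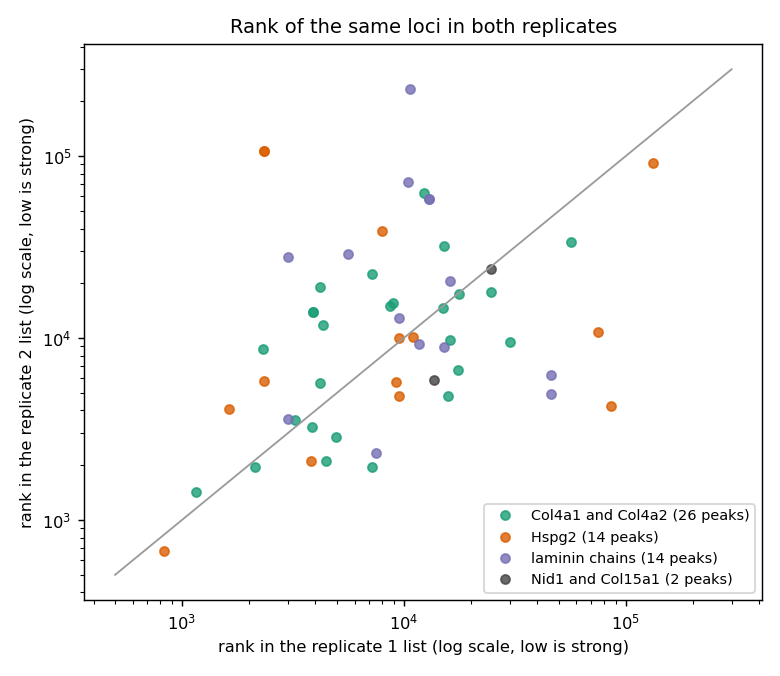
Rank in the replicate 1 list (x axis, log scale) and in the replicate 2 list (y axis, log scale) of the 56 peaks with a call of both replicates at the same place, coloured by gene group. Low ranks are strong, the line marks equal ranks, and peaks that share the calls of both replicates share a point. The point nearest the lower left is Hspg2 +20130, at ranks 828 and 673, and the points far from the line belong mostly to Hspg2 and the laminin chains.

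The search covered 15 consensus motifs, on both strands, in the 200 bp windows. Matches to AP-1 were more frequent at the 10 genes than over the list, a difference that was not tested. AP-1 (TGANTCA), the site of FOS and JUN dimers, was in 12 of the 64 windows, or 18.8% (95% Clopper-Pearson interval 10.1% to 30.5%), against 7.41% of all windows. The 12 windows were 12 separate sites at 5 genes, 6 at the type IV collagen locus, 3 at Hspg2 and 1 each at Lamc1, Lama4 and Col15a1, and all were distal. Among distal peaks the shares were 20.7% at the 10 genes and 9.23% over the list. The ETS motif (AGGAAG) was in 29 windows, or 45.3% (32.8% to 58.3%), against 33.3% of all windows, which lies within that interval, and 11 of the 29 belonged to Hspg2 and another 11 to the type IV collagen locus. Among distal peaks the ETS shares were 46.6% and 37.3%. Both motifs stood together in 4 windows, or 6.25%, against 2.83% of all windows.

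Most other motifs lay nearer to the shares of the whole list. The class A E-box (CAGCTG) was in 23.4% of windows against 17.8%, SMAD (GTCTG) in 45.3% against 40.2%, TEAD (CATTCC) in 17.2% against 14.9%, the motif AGATAA of GATA factors in 15.6% against 13.1% and STAT (TTCNNNGAA) in 9.38% against 6.79%. NKX2 (CACTTNA) was in 10.9% against 9.72%, MEF2 in 3.12% against 2.4% and forkhead (TGTTTAC) in 3.12% against 3.03%. Of these, TEAD (17.2% against 17.8%), SMAD (43.1% against 43.5%), NKX2 (10.3% against 11.7%) and forkhead (3.45% against 3.46%) stood below the list when distal peaks alone were set side by side, and GATA stood at 17.2% in both. Below the whole list stood MEIS (TGACAG) with 17.2% against 18.1%, SOX (ACAAAG) with 10.9% against 14.7% and KLF and SP (GGGCGG) with 7.81% (95% Clopper-Pearson interval 2.59% to 17.3%) against 21%, and among distal peaks with 3.45% against 8.82%. The promoter type of ETS motif (CCGGAAG) and the CArG box had no match in the 64 windows, against 6.85% and 1.44% of all windows. A count of 0 allows up to 3 matches in 64, or 4.69%, and the 95% Clopper-Pearson upper bound is 5.6%. Both limits lie above the shares over all distal windows, 2.84% and 1.67%. Median GC content was 52% at the 10 genes and 53% over the list, with a median of 4 CpG in both. The ETS motif and its promoter type share the letters GGAAG, and a match is a description of letters, not of a bound factor.

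In the printed runs, Hspg2 +20130 holds 1 ETS, 1 SOX and 1 MEIS match, and Col4a2 -15033 holds 3 ETS matches and an E-box at its edge. Lamb1 +28749 holds 2 GATA matches and 1 ETS match. Lamc1 -864 holds 2 overlapping ETS matches in AGGAAGGAAG and 2 TEAD matches that overlap as well. The AP-1 matches are TGAGTCA in Col4a1 -80156 and TGACTCA in Hspg2 +29730, whose window also holds 2 ETS matches, neither of them adjoining the AP-1 match.

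**Figure D5:**
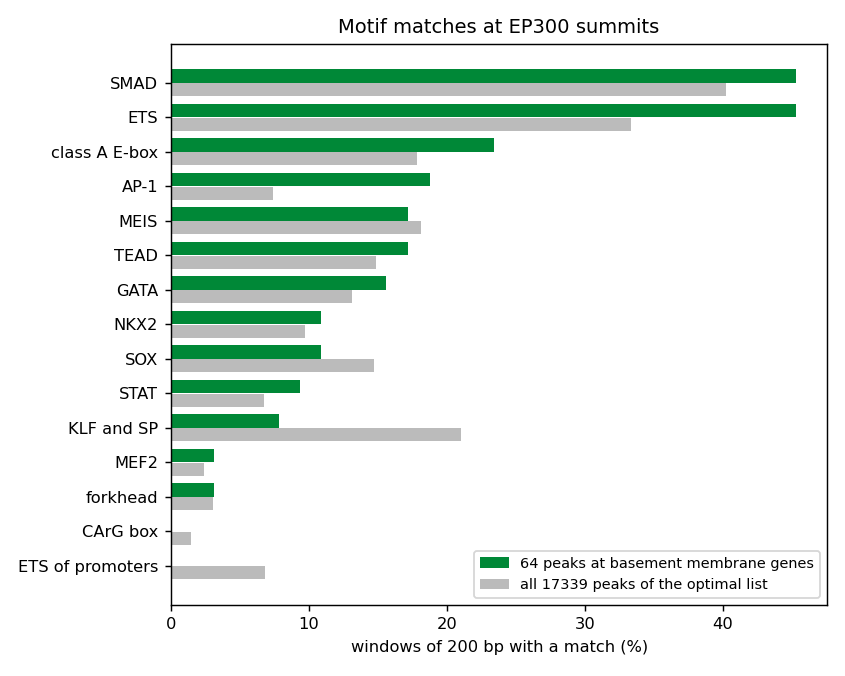
Share of 200 bp summit windows with a match on either strand (x axis, percent) for 15 motifs, for the 64 peaks at the basement membrane genes (green) and all 17339 peaks (grey). AP-1 stands at 18.8% against 7.41%, and KLF and SP at 7.81% against 21%.

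Other genes of the basement membrane, its receptors and its assembly were counted in the same way. Of 22 further chains and basement membrane proteins, 12 had a peak, 31 in all, led by Tinagl1, a secreted matrix protein, with 9, Ntn4, the laminin-related netrin-4, with 4 and a best signal of 86.2, and Col18a1 and Sparc with 3 each. Col18a1 encodes the collagen that yields endostatin, and Sparc encodes a collagen-binding glycoprotein. Of 14 receptors, 9 had a peak, 34 in all. They were led by the integrin chains Itga9 with 8 and Itgb1 with 6, whose best signals were 88.5 and 88.6, and by the collagen receptor Ddr1 with 6. Itga7 and Itgb4, the sarcoglycans Sgcd and Sgcb, and Ddr2 had none. Of 12 genes for folding, modifying and crosslinking collagen, 4 had a peak, 11 in all, with 5 at Pxdn, the peroxidase that crosslinks type IV collagen, 4 at Serpinh1, the collagen chaperone, and 1 each at P4ha2 and P4hb. The shares of genes with a peak were read against 31.9% of all genes, and no list was tested.

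The tissue label was set against marker genes. All 6 heart muscle markers (Myh6, Tnnt2, Actc1, Ryr2, Pln and Nkx2-5) had peaks, 82 in all, as did all 6 endothelial ones (Kdr, Cdh5, Pecam1, Tek, Tie1 and Egfl7), with 33. Of 6 smooth muscle and pericyte markers none had a peak, and of 6 fibroblast markers 3 had 1 each. Liver markers had 1 peak, at Ttr, with a signal of 32.5, and neuronal markers 2, both at Rbfox3. The stronger Rbfox3 peak reached 93.7, above every peak of the basement membrane genes, whose highest was 88.9. The best heart muscle signal was 212.8, at Tnnt2, and the best endothelial one 120.4, at Egfl7. Of all protein-coding genes 31.9% had a peak, and no marker list was tested against this share. The part of each cell type in the peaks of the basement membrane genes was not tested.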

How the data were processed

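The files are 5 deposited peak lists in mm10 coordinates. Per the file headers, replicate 1 was set against 2 control files and replicate 2 against 1, the pooled list came from both, and the optimal and conservative lists were taken from these by the irreproducible discovery rate (IDR). Each deposited peak has a signal value, a −log10 q and, in the IDR lists, a score of at most 1000, by the authors. The score was not used for any result. Which aligner, peak caller, signal formula and IDR threshold were used is not given in the sources used here. The lists hold no read counts, so the depth is unknown.

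Summits were assigned to the nearest of 54327 start positions of protein-coding transcripts in GENCODE M21. The 33 peaks on mitochondrial and unplaced sequence were left out. Sites were merged where summits lay less than 1 full peak width apart. Signal values were compared only within a list. Leading peaks are the 17372 of highest signal. The 10 genes, the gene lists and the motifs were chosen with earlier results of these data known. All 10 genes are named, with the strongest and the strongest promoter peak of each, and of each further list the 3 genes with most peaks and the genes with none where 5 or fewer. P4ha2 and P4hb, and the peaks with unequal ranks, were named after their values were seen. Motif windows came from the GRCm38 sequence. The assignment, matching and merging steps were tested on simulated data, and the motif step was not. The simulated summits lay close to starts with no other start nearby, so overlapping starts and distant summits were not covered. Alternatives changed the distance, the starts, the list, the replicate, the merging, the threshold and the window. The tools were pandas 2.3.3, numpy 2.4.6, pysam 0.24.0, SciPy 1.17.1 and matplotlib 3.10.9 under Python 3.11.15.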

Additional observations from a re-analysis of the deposited data

How the results depend on the processing

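The number of peaks at the 10 genes was 64, against 32 with peaks above the list's median signal alone and 34 with a −log10 q of 2 or more. It was 56 with a limit of 50 kb, 59 by gene body with the 10 kb before the start, 57 with basic transcripts, 53 on the conservative list, 53 on the leading pooled peaks and 52 as merged sites. Each replicate alone gave 47 to 54 peaks at 7 to 8 of the genes, and a promoter-proximal share of 10.6% to 11.1%. That share lay between 7.69% and 10.9% under the other settings. The genes with a peak numbered 7 to 9 under all 11 settings, and Lama2 had none under any of them. The share found in both replicates was 65.6% with all peaks of each replicate list and 56.2% with the first 50000, against 67.3% and 57.1% of all optimal peaks. It was 51.6% with the wider distance between summits, against 53.8% of all optimal peaks, and 46.2% as merged sites, against 48.7% of all merged sites. AP-1 stood at 12.5% against 3.85% in 100 bp windows and at 23.1% against 7.93% as merged sites. The shares of ETS and SMAD moved with the setting. ETS stood at 23.4% against 20.2% in 100 bp windows and at 51.9% against 34.6% as merged sites. SMAD stood at 23.4% against 22.6% and at 51.9% against 40.6% in the same 2 settings. Of 15 motifs, 10 stood above the share of all peaks, 9 in 100 bp windows, 8 as merged sites and 6 among distal peaks alone, a setting added after the data were seen. The 6 include GATA, whose share equals that of the list, 17.2%, once rounded. No paired analysis was possible because there was 1 group of samples. The unknown depth means that a missing call does not show that EP300 was absent.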
